A study of Mus musculus with 6 samples.

Results

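The 9 genes described here encode transcription factors of the osteoblast lineage and were chosen by name: Runx2, Runx1, Cbfb, Sp7, Dlx3, Dlx5, Msx2, Twist1 and Twist2, out of 54532 genes in the deposited table. Their RNA levels were measured by RNA sequencing in MC3T3-E1 cells, a mouse pre-osteoblast line from calvaria that lays down mineralized matrix in osteogenic medium. The control group (3 samples) received osteogenic medium alone, and the metformin group (3 samples) received the same medium with 0.2 mM metformin, a biguanide that lowers blood glucose. Both groups were cultured for 3 days before RNA was taken, and cells in growth medium without osteogenic supplements were not analysed here. All samples came from 1 cell line, which limits them as a model of bone tissue.

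RUNX2 is the factor without which osteoblasts do not form. It binds DNA as a partner of CBFB, which has no DNA contact of its own and serves the other RUNX proteins, RUNX1 among them, in the same way. Sp7 (osterix), a zinc finger factor, acts downstream of Runx2. DLX3, DLX5 and MSX2 are homeodomain proteins that recognise similar AT-rich sites, DLX5 being known as an activator of bone genes and MSX2 as a repressor of many of the same genes. TWIST1 and TWIST2 are basic helix-loop-helix (bHLH) proteins that pair with E proteins and hold back RUNX2 activity in early osteoblasts.

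RUNX proteins recognise a short core, TGTGGT, read ACCACA on the other strand, and Runx1 and Runx2 are both transcribed from a distal and a proximal promoter. The distal promoters are shown because the RNA levels of these paralogs are compared below, and because their sequences share a stretch. The windows are from RefSeq on GRCm38.p6, run from 250 bases before to 50 bases after the start site, are written 5′ to 3′ on the strand of the gene (minus for both), and carry the RUNX core in capitals. They lie at chr16:92826025-92826324 for Runx1 and chr17:44814578-44814877 for Runx2.
Runx1 distal promoter: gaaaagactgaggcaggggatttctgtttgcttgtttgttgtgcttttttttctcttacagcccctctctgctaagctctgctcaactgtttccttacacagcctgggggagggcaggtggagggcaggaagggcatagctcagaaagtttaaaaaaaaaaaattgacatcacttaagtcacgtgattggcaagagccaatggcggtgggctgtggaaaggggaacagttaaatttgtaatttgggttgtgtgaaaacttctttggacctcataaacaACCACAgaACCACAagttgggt
Runx2 distal promoter: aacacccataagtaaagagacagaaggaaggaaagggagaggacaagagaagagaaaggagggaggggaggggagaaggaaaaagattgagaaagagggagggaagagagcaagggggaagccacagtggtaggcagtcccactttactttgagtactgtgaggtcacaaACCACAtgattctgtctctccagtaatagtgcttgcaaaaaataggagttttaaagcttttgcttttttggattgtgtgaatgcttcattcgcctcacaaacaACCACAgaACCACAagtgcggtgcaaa
The Runx1 window held 2 cores, at +29 to +34 and +37 to +42 from the start site, and the Runx2 window held 3, at -80 to -75, +24 to +29 and +32 to +37. The longest run of bases common to both was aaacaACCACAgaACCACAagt, 22 bases long, which ended at +45 in Runx1 and at +40 in Runx2. Among 32851 promoter windows in the table it occurred in only these 2. At least 1 core was present in 16.76% of all windows and at least 2 were present in 1.81%, on either strand. The proximal Runx1 window, at chr16:92697280-92697579, held 0 cores. The tables held 7 windows for 6 of the 9 genes, with none for Sp7, Dlx3 and Dlx5. No core was found in the windows of Cbfb, Msx2, Twist1 and Twist2. The homeodomain core TAATTA occurred once among the 7 windows, in that of Msx2 at -187 to -182, and in 5.29% of all windows. These matches describe letters and are not measured binding sites. The levels below are per gene, so transcripts from the distal and the proximal promoter were not told apart.

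Levels are given in FPKM, that is, reads corrected for gene length and an effective library size, so levels of different genes can be compared. That size was not the total of reads, being 1.97e+07 against 18792236 reads in control replicate 3. Relative to each other, the sizes ran with size factors from the median ratio of genes between samples (0.914 against 0.922 in control replicate 1). Between 18399861 and 22111790 reads per sample lay behind the levels. The 8 genes that could be tested had between 31 and 5510 reads in each sample. Control replicate 1 stood apart from the other controls. Across 12663 genes its deviation from them had a Spearman correlation of -0.67 with GC content, a description in which genes are not independent replicates. The 9 genes had between 42.5% and 59.3% GC, against a median of 49.5% over tested genes. Each result is therefore given with all 6 samples and, where it differs, without control replicate 1 or after GC content was corrected for in each library. Of 9 osteoblast identity markers, which include the factors Runx2 and Sp7 themselves, all passed the expression limit. Sparc, a matrix glycoprotein, lay between 1337 and 1651 FPKM in all samples. Alpl, the alkaline phosphatase of mineralizing cells, lay only between 2.44 and 3.84 FPKM and Bglap, osteocalcin, between 2.22 and 12.3 FPKM.

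With metformin, 3 of the 9 factors were higher (Dlx5, Msx2 and Runx1), 1 was lower (Dlx3), 4 were not called (Runx2, Cbfb, Sp7 and Twist1) and Twist2 was too low to test. Mean FPKM was 1.96-fold higher for Dlx5, 2.65-fold higher for Msx2 and 1.5-fold higher for Runx1, and 2.28-fold lower for Dlx3. A gene was called at an adjusted p under 0.05 by limma-trend on log2(FPKM + 1), with Benjamini-Hochberg adjustment over 12681 genes, of which 22.5% were called, 13.2% as higher and 9.28% as lower. Thus 4 of 8 tested factors were called beside 22.5% of all genes, with no test of that difference. For 6 of the 8 the groups did not overlap, metformin lying above in 4 and below in 2, which was also so for 44.1% of all tested genes. The median log2 fold change of the 8 was 0.15, against 0.01 over all tested genes. Without control replicate 1, 6 of the 8 were called, as were 43.8% of all genes, and with the GC correction 6 were called, as were 35.4% of all genes. Both of these fits added Sp7 and Twist1. With the GC correction, 45.9% of the calls over all genes were higher, in place of 58.7%.

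**Figure D1:**
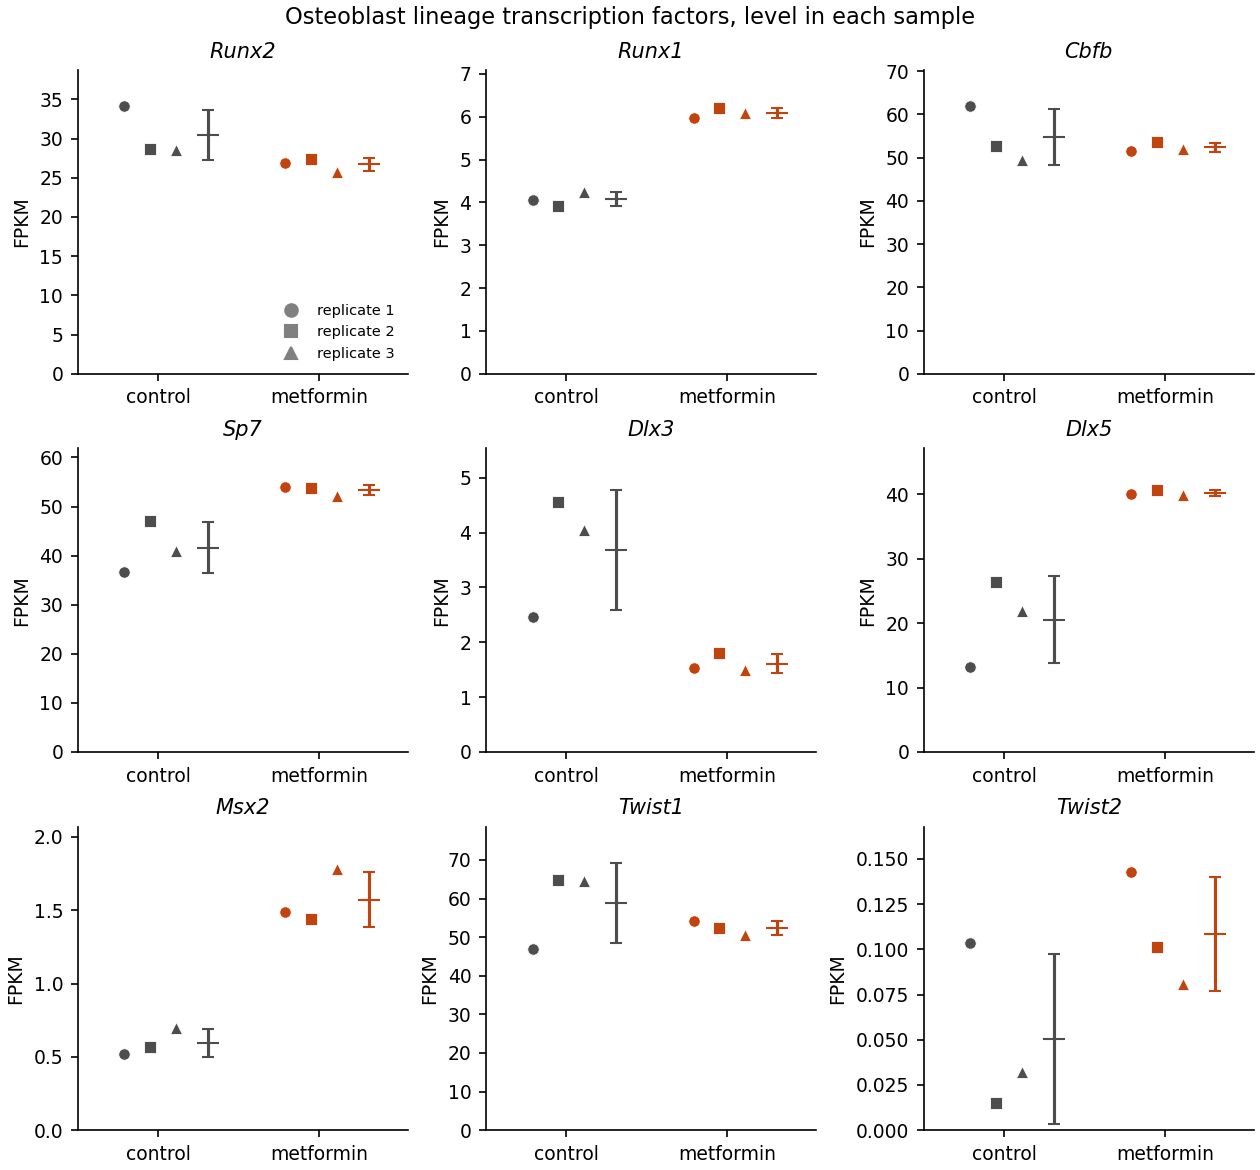
FPKM of each of the 9 factors (vertical axes, linear from 0, with a scale for each gene) in the 3 control and 3 metformin samples, with symbols for replicates and bars for mean ± SD. The metformin samples lie above all controls for Runx1, Sp7, Dlx5 and Msx2, below all controls for Runx2 and Dlx3, and overlap with the controls for Cbfb, Twist1 and Twist2.

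Runx2 RNA was not called different. Runx2 measured 34.1, 28.7 and 28.6 FPKM in control replicates 1 to 3 and 26.9, 27.4 and 25.8 FPKM in the metformin samples. Every metformin sample was below every control, with control replicate 1 the highest, and mean levels were 30.5 ± 3.19 and 26.7 ± 0.844 (SD, n = 3 each). The log2 fold change was -0.18 (SE 0.10, 95% interval -0.41 to 0.06, adjusted p = 0.243). Without control replicate 1 it was -0.10 (adjusted p = 0.189), and with the GC correction -0.23 (adjusted p = 0.0860). The gene (ENSMUSG00000039153, chr17:44495987-44814797) overlaps Runx2os1, an antisense transcript, over 519 exonic bases, and the strand setting of the counting is not given in the sources used here. Runx2os1 had between 10 and 39 reads per sample, whereas Runx2 had at least 4440.

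Runx1 RNA rose with metformin. Runx1, best known for its role in blood cell formation and also expressed in skeletal progenitors, measured 4.07, 3.92 and 4.24 FPKM in the controls and 5.98, 6.21 and 6.09 FPKM with metformin. The groups were well separated, and control replicate 1 sat between the other controls. The log2 fold change was 0.48 (SE 0.07, adjusted p = 0.00501), and it was called in all 6 fits that left out 1 sample, with adjusted p between 0.00172 and 0.0385. The gene lies at chr16:92601466-92826149 (ENSMUSG00000022952).

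Cbfb, the shared partner, did not separate the groups. It measured 62.0, 52.6 and 49.5 FPKM in the controls and 51.6, 53.5 and 51.9 FPKM with metformin. Control replicate 1 was the highest sample, control replicate 2 lay within the metformin range and control replicate 3 below it. The log2 fold change was -0.06 (95% interval -0.31 to 0.19, adjusted p = 0.745), and without control replicate 1 its sign turned, to 0.04 (adjusted p = 0.624).

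Within a sample, Runx2 RNA exceeded Runx1 RNA by 2.90 ± 0.16 log2 units in the controls and by 2.13 ± 0.04 with metformin (SD, n = 3 each). This difference between levels narrowed by 0.77, and the 3 samples of each group did not overlap. The exact two-sided permutation test gave p = 0.1, the smallest that 3 against 3 samples allow, and 0.2 after adjustment over 4 pairs of factors. Runx2 minus Cbfb went from -0.84 ± 0.04 to -0.97 ± 0.04, also without overlap (exact permutation p = 0.1, adjusted 0.2). Runx3, the other RUNX gene, measured 11.1, 15.4 and 19.3 FPKM in the controls and 13.8 FPKM in each metformin sample (log2 fold change -0.10, adjusted p = 0.722). It was called lower only without control replicate 1 (adjusted p = 0.0427). Summed over the 3 genes, RUNX family FPKM was between 47.9 and 52.1 in the controls and between 45.7 and 47.4 with metformin. The Runx1 share of that sum was 8.24%, 8.17% and 8.14% in the controls and 12.8%, 13.1% and 13.3% with metformin, and the Runx2 share was between 54.9% and 69.2% in the controls and between 56.4% and 57.9% with metformin.

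**Figure D2:**
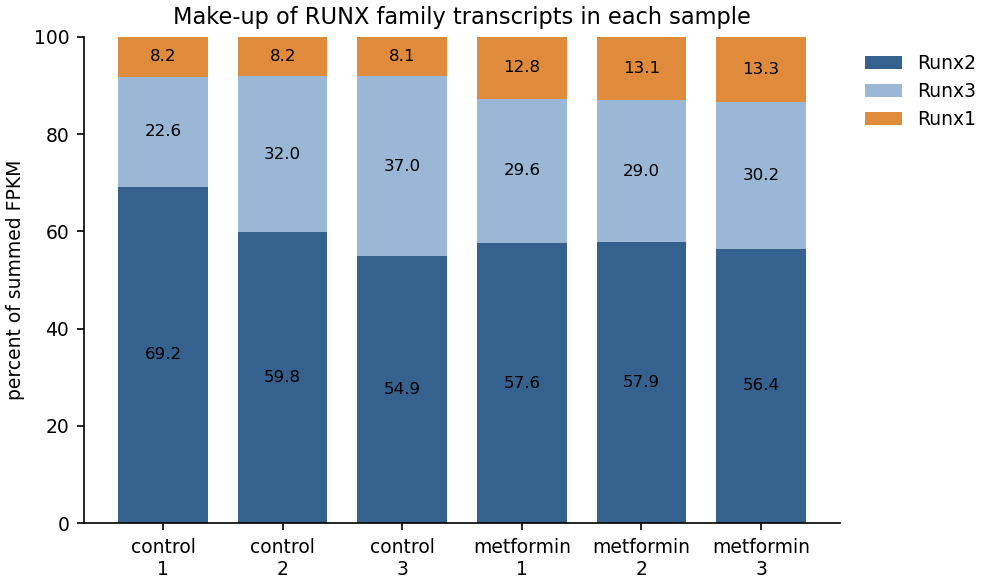
Percent of summed RUNX family FPKM (vertical axis, 0 to 100) taken by Runx2, Runx3 and Runx1 in each of the 6 samples, with each value printed in its bar segment. The Runx1 segment is 8.14% to 8.24% in the controls and 12.8% to 13.3% with metformin, while the Runx2 and Runx3 segments vary most among the controls.

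Sp7 was higher in every metformin sample without reaching the threshold. It measured 36.8, 47.1 and 41.0 FPKM in the controls and 54.0, 53.8 and 52.1 FPKM with metformin. Its log2 fold change was 0.36 (SE 0.11, 95% interval 0.10 to 0.61, unadjusted p = 0.0142, adjusted p = 0.0586). The adjusted p crossed the threshold without control replicate 1 (0.0230, log2 fold change 0.27), without control replicate 2 (0.0343, log2 fold change 0.45), with the GC correction (0.0204) and with voom on the recovered reads (0.0474). Sp7 (ENSMUSG00000060284) lies at chr15:102356606-102367182.

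Dlx5 had the largest rise of the 8 tested factors on the log2(FPKM + 1) scale, although Msx2 rose more with a pseudocount of 0.1 (1.27 against 1.03) or by voom (1.39 against 1.02). It measured 13.2, 26.4 and 21.9 FPKM in the controls and 40.0, 40.7 and 39.9 FPKM with metformin. The controls varied more among themselves than the metformin samples, with a coefficient of variation of 32.8% against 1.04%, and control replicate 1 was the lowest. The log2 fold change was 0.99 (SE 0.23, adjusted p = 0.0246), and without control replicate 1 it was 0.72 (adjusted p = 0.00102). The call was lost without metformin replicate 1, 2 or 3 (adjusted p = 0.0847, 0.0899 and 0.0831) and without a filter on low genes (0.0625). The log2 fold change without metformin replicate 1, 2 or 3 was 0.99, 0.98 and 1.00.

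Dlx3 went the other way. It measured 2.46, 4.55 and 4.04 FPKM in the controls and 1.53, 1.81 and 1.50 FPKM with metformin, with at least 76 reads per sample. Again control replicate 1 was the lowest control, here the one nearest to the metformin samples. The log2 fold change was -0.82 (SE 0.18, adjusted p = 0.0214), and without control replicate 1 it was -1.02 (adjusted p = 0.000389). The call was lost when any other sample was left out: without control replicate 2 or 3 adjusted p was 0.0639 and 0.0625, and without metformin replicate 1, 2 or 3 it was 0.0825, 0.0617 and 0.0826. It was also lost without a filter on low genes (0.0631). With any of these other samples left out the log2 fold change lay between -0.87 and -0.68.

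The 6 Dlx genes stand in the genome as 3 linked pairs, and both genes of a pair lay on the same side of the controls in every metformin sample. Groups without overlap were also found for 44.1% of all tested genes, and those of Dlx4 were close (0.345 against 0.365 FPKM). Dlx6, next to Dlx5 on chromosome 6, measured 1.80, 2.45 and 2.10 FPKM in the controls and 4.18, 3.48 and 3.98 FPKM with metformin (log2 fold change 0.65, adjusted p = 0.00769). Dlx1 and Dlx2, paired on chromosome 2, had log2 fold changes of 0.84 and 0.96 (adjusted p = 0.00351 and 0.0393). The Dlx2 call was kept without control replicate 1 or 3 (adjusted p = 0.000491 and 0.0429) and lost without any other single sample (adjusted p between 0.0534 and 0.126). Dlx4, the neighbour of Dlx3 on chromosome 11, was below the expression limit, at 0.419, 0.365 and 0.545 FPKM in the controls and 0.247, 0.225 and 0.345 FPKM with metformin, so it was not tested. Summed Dlx FPKM was between 20.9 and 40.3 in the controls and between 57.2 and 57.8 with metformin, so a share can change more than the gene's own level. The Dlx3 share of that sum was 11.5% ± 0.220 in the controls and 2.80% ± 0.298 with metformin, and the Dlx5 share was 63.6% ± 1.81 and 69.8% ± 0.650 (SD, n = 3 each). Control replicate 1 was the lowest control in Dlx3 and Dlx5 alike.

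**Figure D3:**
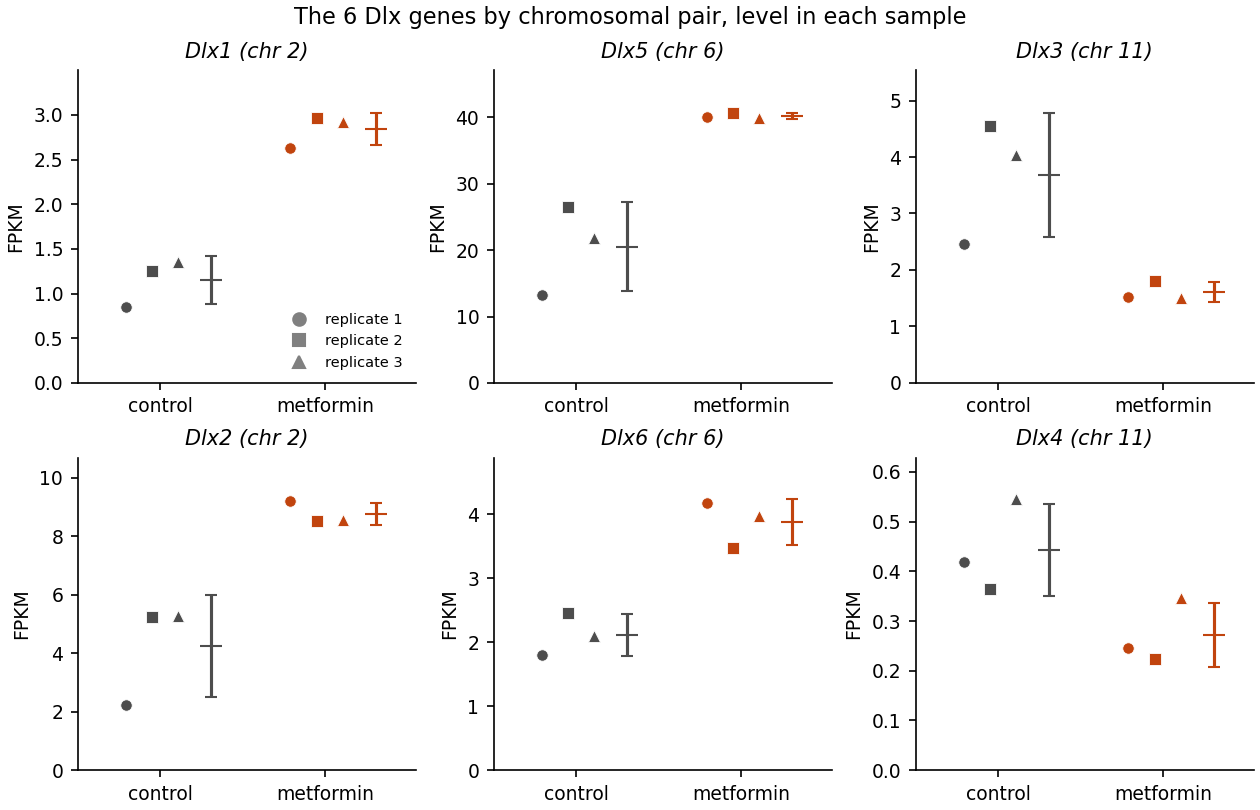
FPKM of the 6 Dlx genes (vertical axes, linear from 0, with a scale for each gene) in 3 control and 3 metformin samples, with 1 column of panels for each linked pair, symbols for replicates and bars for mean ± SD. Metformin samples lie above all controls for Dlx1, Dlx2, Dlx5 and Dlx6 and below all controls for Dlx3 and Dlx4.

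Msx2 rose from a low level. It measured 0.518, 0.567 and 0.698 FPKM in the controls and 1.49, 1.44 and 1.78 FPKM with metformin, or 31 to 45 reads against 97 to 114. The highest control was below the lowest metformin sample, and the log2 fold change was 0.69 (SE 0.10, adjusted p = 0.00475). The pseudocount shrinks the change of a gene this low: it was 1.27 with a pseudocount of 0.1 and 1.39 by voom on the recovered reads. All 6 fits that left out 1 sample called it, with adjusted p between 0.00371 and 0.0280. Within a sample, Dlx5 minus Msx2 was 5.06 ± 0.44 log2 units in the controls and 4.68 ± 0.18 with metformin. The change between groups was -0.38 (exact permutation p = 0.3, adjusted 0.4), and the sign of this change turned on the log2(FPKM + 1) scale, to 0.30. Msx1, the paralog, was not called (log2 fold change -0.31, adjusted p = 0.133), and was called lower without control replicate 1 (adjusted p = 0.00676) and with the GC correction (adjusted p = 0.0109).

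Twist1 was among the highest of the 9 and was not called. It measured 47.0, 64.9 and 64.7 FPKM in the controls and 54.3, 52.4 and 50.6 FPKM with metformin. Control replicate 1 lay below the metformin samples and the other controls above them. Over all 6 samples the log2 fold change was -0.15 (95% interval -0.48 to 0.19, adjusted p = 0.496). Without control replicate 1 it was -0.30 (adjusted p = 0.00582), and with the GC correction -0.23 (adjusted p = 0.0314). Runx2 minus Twist1 was -0.94 ± 0.41 log2 units in the controls and -0.97 ± 0.04 with metformin (exact permutation p = 1). The change between groups was -0.03, and without control replicate 1 this change turned to 0.21.

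Twist2 was near the limit of detection, with 6, 1 and 2 reads in the controls and 9, 7 and 5 with metformin, or at most 0.143 FPKM. Its groups overlapped and no fold change is given. It shares 1477 of its 3174 exonic bases with Gm29100, an antisense gene with at most 4 reads per sample.

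**Figure D4:**
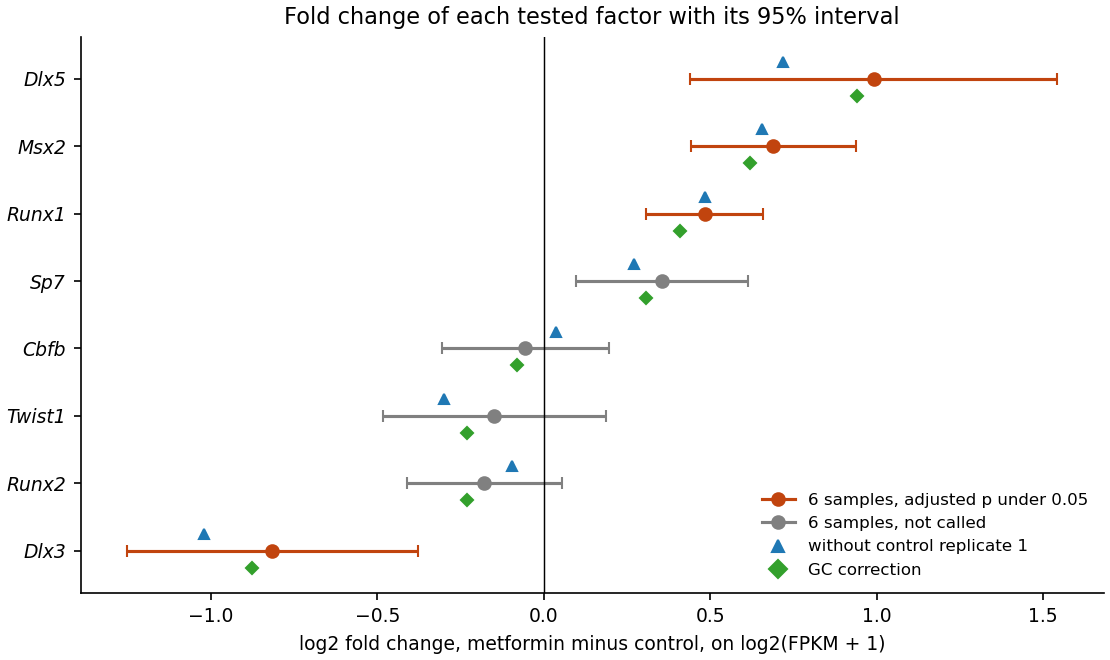
Log2 fold change of the 8 tested factors, metformin minus control on log2(FPKM + 1) (horizontal axis), with 95% intervals from all 6 samples as circles and bars, the estimate without control replicate 1 as triangles and the GC-corrected estimate as diamonds. Dlx5, Msx2, Runx1 and Dlx3 are coloured as called. The triangles of Dlx3 and Twist1 lie further below 0 than the circles, and that of Cbfb lies on the other side of 0.

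The order of mean levels in the controls was Twist1 (58.8 FPKM), Cbfb (54.7), Sp7 (41.6), Runx2 (30.5), Dlx5 (20.5), Runx1 (4.07), Dlx3 (3.68), Msx2 (0.594) and Twist2 (0.0502). Sample ranges overlapped between the neighbours Twist1 and Cbfb and between Runx1 and Dlx3. With metformin the order was Sp7 (53.3 FPKM), Twist1 (52.4), Cbfb (52.3), Dlx5 (40.2), Runx2 (26.7), Runx1 (6.09), Dlx3 (1.61), Msx2 (1.57) and Twist2 (0.108). The first 3 overlapped in range, as did Dlx3 and Msx2. Dlx5 thus stood below Runx2 in the controls and above it with metformin, without overlap of the ranges of both genes in either group. Among all tested genes, Runx2 was at percentile 87.6 of mean level in the controls and 84.8 with metformin, Dlx5 at 80.9 and 90.6, and Msx2 at 3.57 and 17.2.

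Of 23 tested cofactors of the RUNX proteins, 1 was higher and 1 lower, or 8.70% against 22.5% of all tested genes, with a median log2 fold change of -0.0047. Tle1, a Groucho corepressor, went from 4.51 ± 0.364 to 3.34 ± 0.159 FPKM (log2 fold change -0.34, adjusted p = 0.0319). The Tle1 call was lost when any sample other than control replicate 1 was left out, with adjusted p between 0.0712 and 0.134. Without control replicate 1, 5 genes of the list were higher and 5 lower, where 43.8% of all tested genes were called, and without a filter on low genes the Tle1 call was lost (adjusted p = 0.0760).

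Among 25 other tested skeletal transcription factors 5 were higher and 5 lower, or 40.0% against 22.5% of all tested genes (median log2 fold change -0.06). Among called genes the largest rises were those of Dlx2 and Dlx1, given above, and of Klf4, a zinc finger factor, from 26.3 ± 5.77 to 41.6 ± 2.71 FPKM (adjusted p = 0.0329). The Klf4 call was kept without control replicate 1 or 3 and lost without any other single sample (adjusted p between 0.0506 and 0.123). Without a filter on low genes the calls of Klf4 and Dlx2 were lost (0.0735 and 0.0979). Junb, an AP-1 subunit, had a larger estimate of 1.50, from 24.1, 84.1 and 89.6 FPKM in the controls to 171, 161 and 154 FPKM with metformin, but was not called (adjusted p = 0.0658). It was called by voom (0.0419), with the GC correction (0.00933) and without control replicate 1 (0.000188). Fosl1, another AP-1 subunit, had an estimate of 0.85 (adjusted p = 0.0811) and was called without control replicate 1 (0.00432), without control replicate 3 (0.0497) and after GC correction (0.0115). The largest decreases were those of Zbtb16, Tcf7 and Maf. Zbtb16, a zinc finger repressor, went from 6.17 ± 1.67 to 1.38 ± 0.0476 FPKM (log2 fold change -1.57, adjusted p = 0.000960). Tcf7, a nuclear partner of beta-catenin in Wnt signalling, measured 12.2, 15.3 and 13.3 FPKM in the controls and 4.20, 4.44 and 3.75 FPKM with metformin (log2 fold change -1.50, adjusted p = 0.000240). Maf, a basic leucine zipper factor known to cooperate with RUNX2, went from 70.6 ± 8.17 to 28.7 ± 0.983 FPKM (log2 fold change -1.26, adjusted p = 0.000401). These 3 decreases were called in all 6 fits that left out 1 sample. The list had 9 genes higher and 11 lower without control replicate 1, beside 43.8% of all tested genes called. Its share of called genes was not tested against that of all genes.

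The list of bHLH partners and relatives of Twist held the largest changes of the 4 lists. It also holds zinc finger genes that are not of the bHLH family, Snai2 among them, so its counts are not of bHLH genes alone. Of 12 tested genes, 4 were higher and 2 lower, beside 22.5% of all tested genes called (median log2 fold change 0.23). These were 7 and 4 without control replicate 1, beside 43.8% of all tested genes. ID proteins bind E proteins and lack a DNA-binding region, so they take E proteins away from partners such as TWIST1. Id2 measured 2.88, 2.72 and 2.09 FPKM in the controls and 24.4, 22.7 and 20.5 FPKM with metformin (log2 fold change 2.73, adjusted p = 6.43e-05). Id3 went from 30.5 ± 3.31 to 155.9 ± 3.05 FPKM (log2 fold change 2.32, adjusted p = 6.43e-05) and Id1 from 19.7 ± 2.17 to 52.3 ± 2.43 FPKM (log2 fold change 1.37, adjusted p = 0.000274). Id4 went the other way, from 29.6 ± 2.79 to 19.5 ± 1.14 FPKM (log2 fold change -0.58, adjusted p = 0.00822), a call lost without metformin replicate 2 (adjusted p = 0.0508). Snai2, a zinc finger repressor, rose from 15.9 ± 2.27 to 37.1 ± 0.418 FPKM (log2 fold change 1.18, adjusted p = 0.000633). Of the E protein genes, Tcf4 was lower (log2 fold change -0.35, adjusted p = 0.0418, with the call kept only without control replicate 1 when a sample was left out, and adjusted p otherwise between 0.0655 and 0.165). The other E protein genes, Tcf3 and Tcf12, were not called with all samples (log2 fold changes 0.68 and 0.21, adjusted p = 0.0803 and 0.146). Without control replicate 1 both were called higher (adjusted p = 0.0182 and 0.0190), and Tcf3 was also called with the GC correction (0.00262) and without control replicate 3 (0.0277). Without a filter on low genes the Tcf4 call was lost (0.101).

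Bone matrix and mineralization genes, many of them known targets of RUNX2 and Sp7, moved in both directions, 7 of 20 tested genes higher and 6 lower, or 65.0% called against 22.5% of all tested genes (median log2 fold change 0.01). These were 8 and 8 without control replicate 1, beside 43.8% of all tested genes. The share called was not tested against that of all genes, and the list was chosen with earlier results of these data known. Type I collagen Col1a1 went from 1339 ± 359 to 2487 ± 108 FPKM (log2 fold change 0.93, adjusted p = 0.0230), and the call was lost without metformin replicate 1, 2 or 3 (adjusted p = 0.0889, 0.0942 and 0.0749). Col5a1 and Fmod, a collagen-binding proteoglycan, had log2 fold changes of 0.91 and 0.81 (adjusted p = 0.0285 and 0.00290). The Col5a1 call was kept without control replicate 1 or 3 and lost without any other single sample (adjusted p between 0.0804 and 0.110). Ibsp, bone sialoprotein, measured 664.0, 963.5 and 815.5 FPKM in the controls and 268.8, 266.5 and 260.2 FPKM with metformin (log2 fold change -1.60, adjusted p = 0.000578). Spp1, osteopontin, went from 7703 ± 989 to 2704 ± 23.4 FPKM (log2 fold change -1.50, adjusted p = 0.000471), and the collagenase gene Mmp13 fell by 1.40 on that scale (adjusted p = 0.000415). Without a filter on low genes the calls of Col1a1, Col5a1 and Spp1 were lost (adjusted p = 0.186, 0.0776 and 0.198). Alpl, Bglap and Bglap2 were not called (log2 fold changes -0.16, -0.28 and -0.57, adjusted p = 0.412, 0.735 and 0.175). Bglap and Bglap2 were called lower only without control replicate 1 (adjusted p = 0.00314 and 0.0304), and as close copies of each other they may share reads.

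**Figure D5:**
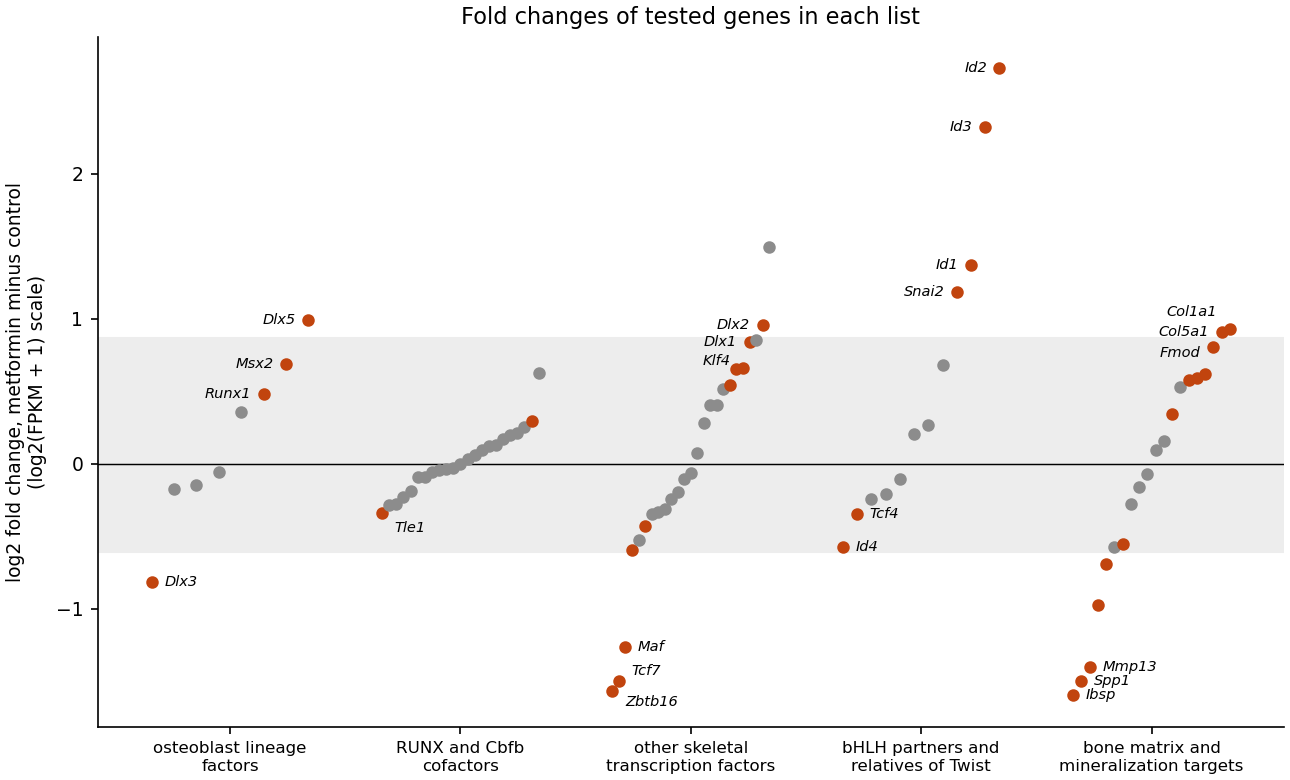
Log2 fold change (vertical axis, metformin minus control on log2(FPKM + 1)) of the tested genes of the 9 factors and of 4 lists, sorted within each list, with called genes in red and other genes in grey. The grey band spans the 5th to the 95th percentile of all tested genes, -0.61 to 0.87. Id2 and Id3 lie furthest above it and Ibsp, Zbtb16, Tcf7 and Spp1 furthest below.

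By the protein families given in the table, 1 of 3 tested Runt genes was called (33.3%), 16 of 60 homeobox genes (26.7%), 16 of 37 bHLH genes (43.2%) and 82 of 382 C2H2 zinc finger genes (21.5%), beside 22.5% of all tested genes. These are the families of Runx1 and Runx2, of the Dlx genes and Msx2, of the Twist genes and of Sp7. In that order, 1, 7, 8 and 17 genes were higher and 0, 9, 8 and 65 lower, beside 13.2% and 9.28% of all tested genes. Their median log2 fold changes were -0.10, -0.0035, -0.09 and -0.25, against 0.01 over all tested genes. Across the 6 samples, the genes whose centred log2(FPKM + 1) values lay closest to those of Runx2 were Faf2, Atf7 and Malt1, with a root mean square difference of 0.0209, 0.0212 and 0.0231. For Dlx5 they were Bok, Dctpp1 and Gm5559 (0.0537, 0.0565 and 0.0604), each low in control replicate 1 like Dlx5 itself.

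Some defining markers of other cell types were at or near 0, and others were expressed. Myod1, Myf5 and Myog of muscle, Tnmd and Kera of tendon and Acp5 of osteoclasts were at 0 in all samples, and summed endothelial markers reached at most 0.131 FPKM. Of the 5 muscle markers, Ckm reached at most 0.0176 FPKM and Des was expressed. Des went from 1.55 ± 0.338 to 2.27 ± 0.180 FPKM without overlap of the groups (log2 fold change 0.37, adjusted p = 0.0771). Des was called higher with the GC correction (adjusted p = 0.0409), but not without control replicate 1 (adjusted p = 0.0614). The summed FPKM of 7 macrophage and osteoclast markers was between 254 and 280 in the controls and between 158 and 171 with metformin, nearly all of it Ctsk (243 to 271 and 149 to 162), with Ptprc at most 0.0156. For 7 chondrocyte markers the sum was between 33.5 and 46.4 in the controls and between 32.7 and 34.2 with metformin, most of it Sox9 (19.9 to 28.1 over all samples) and Col2a1 (6.44 to 11.9), with Acan at most 0.0270. Of the 5 chondrocyte markers tested only Col10a1 was called, lower (log2 fold change -1.91, adjusted p = 0.000206). Without control replicate 1, 1 of them was higher and 3 were lower. Of the 3 macrophage and osteoclast markers tested, 2 were called lower, and 3 without control replicate 1. Beside these, 22.5% of all tested genes were called, and 43.8% without control replicate 1. Adipocyte markers summed to between 7.78 and 12.2 FPKM in the controls and between 8.65 and 9.68 with metformin, and tendon markers to between 11.5 and 24.0 and between 16.2 and 18.5. In both of these lists 2 markers were tested and 0 were called, and without control replicate 1, 1 in each list was lower. The part of these genes in the changes of the 9 factors was not tested, and in cultures measured as a whole, a change in the number of cells of a type and a change in RNA per cell cannot be told apart.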

How the data were processed

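RNA sequencing was compared between 3 control and 3 metformin samples. The study's methods call the samples biological replicates and give the dose of 0.2 mM and the 3 days, and the sample labels give the groups. The 9 genes and the gene lists were chosen with earlier results of these data known, which can raise their shares of called genes. These shares were not tested against that of all genes for any list. RNA was extracted with Trizol and libraries were built from total RNA with an Illumina TruSeq kit. The authors deposited 1 table of 54532 genes whose values carry no unit. Multiplied by gene length, the values fell on whole steps of 1 read in each sample (100% of values, within 0.001 of a read). This gave back the reads, 18399861 to 22111790 per sample. The values were taken as FPKM, although whole steps cannot tell FPKM from another scaling of reads per gene length. A floor of 3 reads covers counting error only. The submitters' processing notes name Bowtie 0.12.2 and the builds mm8 and mm9 without a role for either, whereas all 9 genes have their GENCODE M21 (GRCm38) coordinates in the table. The authors tested with DESeq2, and their comparisons were not used here. There were 0 further columns of sample values.

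The table holds no deposited counts, so limma 3.58.1 (R 4.3.3) was run with an intensity trend on log2(FPKM + 1) over the 12681 genes that averaged 0.5 FPKM or more, with Benjamini-Hochberg adjusted p-values. The pseudocount shrinks the fold changes of low genes. Differences between pairs of factors were log2 FPKM differences within a sample, for genes with at least 10 reads in every sample, tested with two-sided exact permutation tests (SciPy 1.17.1). Named genes were the 9 factors, all called genes of a list where there were at most 6 and otherwise the 3 largest each way, Col1a1, Alpl, Spp1, Ibsp, Bglap and Bglap2, the 3 genes most like Runx2 and Dlx5, and genes overlapping a factor. Runx3, Msx1, Junb, Fosl1, Dlx4, Dlx6, Tcf3, Tcf12 and single cell type markers were named after their values were seen. A gene of the lists is not reported by name here. No other gene had a transcript at least 95% identical over 200 bases to one of the 9 (BLAST+ 2.17.0). Alternatives were a pseudocount of 0.1, no filter, at least 10 reads in every sample, scaling by total reads, voom on recovered reads, the replicate number as a block, a GC correction (a spline with 5 degrees of freedom in each library), and leaving out each sample. The main fit was tried on simulated reads, drawn with the same dispersion for all genes and samples. They held no deviating library and no trend with GC content, so that trial does not cover the deviation of control replicate 1. Promoters came from RefSeq on GRCm38.p6. Figures used matplotlib 3.10.9.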

Additional observations from a re-analysis of the deposited data

How the results depend on the processing

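Of 112 fits of the 8 tested factors under other settings, 95 kept direction and side of the threshold, 10 lost a call, 6 gained one and 1 turned sign (Cbfb without control replicate 1, to 0.036, in a range from -0.12 to 0.036 with 1 sample left out). The calls of Msx2 and Runx1 were kept in every alternative, those of Dlx3 and Dlx5 were not, and the values are given with each gene. Factors called lower numbered 1, and 2 with the GC correction, 0 without the filter and 0 to 2 with 1 sample left out. Factors called higher numbered 2 to 4 with 1 sample left out. The 4 lists, with 23, 25, 12 and 20 genes tested, held 17 higher and 14 lower genes. These counts were 11 and 9 without the filter, and 9 to 29 and 8 to 28 with 1 sample left out, the highest being without control replicate 1. Counts over all tested genes moved as well, from 1670 higher and 1177 lower to 1432 and 884 without the filter, and with 1 sample left out as given below.

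Over all tested genes 1670 were higher and 1177 lower. With 1 sample left out the counts ran from 938 (without metformin replicate 1) to 2969 and from 495 to 2590, the highest again without control replicate 1. Without metformin replicate 1, 2 or 3, 938, 943 and 985 genes were higher and 495, 518 and 533 lower. The GC correction gave 2433 lower genes and moved the log2 fold changes by a median of -0.05. The cause was not tested. Deviations of same-numbered samples had correlations across genes of -0.05, 0.00 and -0.05. These cannot decide whether the numbers pair samples, which the labels do not say. Control replicate 1 deviated by a median of 0.28 log2 units, whereas metformin samples deviated by 0.06 to 0.07. The replicate block gave 698 lower genes, and 1888 with the GC correction as well, and it kept the calls of Dlx3, Dlx5, Msx2 and Runx1 (4 factors). The change of Runx2 minus Twist1 between groups was -0.03, and it turned sign with the GC correction (0.00097) and without control replicate 1 (0.21). Over all fits with 1 sample left out this change ran from -0.15 to 0.21. The change of Dlx5 minus Msx2 between groups was -0.38, and it turned sign on the log2(FPKM + 1) scale, to 0.30. The GC correction was made on that same scale and gave 0.32, so it turned no sign of its own. With 3 samples a group the intervals of Runx2, Cbfb and Twist1 include 0, and the reads of Twist2 were too few for a comparison.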
